A study of Mus musculus with 12 samples.

Results

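The genes described here are 9 members of the Wnt/beta-catenin system that patterns the liver lobule, followed in 3 kinds of mouse liver sample by single-nucleus RNA sequencing. They were chosen by name and not by a measured value, as 9 of the 32285 genes counted. The 3 ligands Wnt2, Wnt9b and Rspo3 were followed in endothelial nuclei, and the 6 receptor and target genes Lgr5, Axin2, Tbx3, Rnf43, Znrf3 and Tcf7l2 in hepatocyte nuclei. Tcf7l2 codes for a Tcf transcription factor and is counted among the 6 only as a label of the group.

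Wnt proteins bind Frizzled receptors with Lrp5 or Lrp6 as co-receptor, which stabilises beta-catenin and lets it work with transcription factors of the Tcf family in the nucleus. R-spondins bind the Lgr receptors and the membrane ubiquitin ligases Rnf43 and Znrf3, and so keep the Wnt receptors on the cell surface. In the liver lobule the endothelial cells of the central vein and the neighbouring sinusoids are the known source of Wnt2, Wnt9b and Rspo3, and the hepatocytes closest to them express the target genes.

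Each of 8 mice gave 1 sample of each kind. Liver (L) was tissue cut from the median lobe after blood had been flushed out, Cell Suspension (CS) was the cells released by collagenase perfusion and spun at low speed, and Primary Hepatocytes (PH) were those cells after 24 hours on collagen-coated plates with dexamethasone and insulin. The labels give all animals as wild type of strain C57BL6J, the study's methods as male C57BL/6NTac mice aged 10 to 12 weeks on chow, and no group carried a transgene or a deletion. Nuclei of the 24 samples were tagged with barcoded antibodies and run in 6 pools of 4 samples.

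The authors' table holds 53467 nuclei, of which 15166, 13339 and 16283 were hepatocyte nuclei and 2474, 1152 and 1809 endothelial nuclei in L, CS and PH. Most PH nuclei carry only the name "Cultured Cells" in that table, as do 952 nuclei of L and CS. The authors' clusters of this name were read here by the cell type whose marker list had the highest summed CPM. Cluster 12 was thus read as endothelial-like, at 6331 CPM of endothelial and 3236 CPM of hepatocyte markers. Cluster 27 was read as stellate-like and the rest as hepatocyte nuclei. Another 276 PH nuclei carry an uncultured name and were kept in the PH sums, 76 of them among the 1809 endothelial nuclei. Summed UMIs (unique molecular identifiers, each counting 1 captured RNA) per sample ranged over the 24 samples from 2104087 to 29023569 in hepatocyte nuclei and from 95289 to 2578536 in endothelial nuclei. The summed level of the 8 hepatocyte markers in hepatocyte nuclei was 9618 to 14733 CPM in L, 12230.1 to 16388 CPM in CS and 2257 to 6645 CPM in PH. In endothelial nuclei the 9 endothelial markers summed to 11222 to 14952 CPM in L, 9017 to 14340 CPM in CS and 5181 to 8417 CPM in PH, and the hepatocyte markers to 1848 to 3965, 1730.3 to 5936 and 1144 to 4361 CPM. Pooled over samples, endothelial Ptprb stood at 4643 CPM in L and 643 in PH, Kdr at 787 and 92.0, and Eng at 925 and 242. Stab2 and Flt1 were also lower in PH, and Pecam1, Adgrf5, Arhgap31 and Cdh5 were higher. A total of 337 cell barcodes occurred in more than 1 pool. Levels below are CPM (counts per 1000000 UMIs of the same nuclei), called scaled CPM where edgeR's trimmed-mean factors were applied. Differences are log2 fold changes with Benjamini-Hochberg adjusted p-values from edgeR's quasi-likelihood test over all genes, n = 8 samples per group. The ± value is an approximate standard error, the absolute log2 fold change divided by the square root of the test's F statistic. Samples of nuclei are sums over cells, so fewer cells with a transcript and less transcript per cell cannot be told apart in them.

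The 9 genes lie on 5 autosomes of GRCm38. Wnt2 is on the minus strand at chr6:17988940-18030585, Wnt9b on the minus strand at chr11:103727364-103749821, and Rspo3 on the minus strand at chr10:29452416-29535867. Lgr5 lies on the minus strand at chr10:115450311-115587780, Axin2 on the plus strand at chr11:108920349-108950783, and Tbx3 on the plus strand at chr5:119670669-119684724. Rnf43 is on the plus strand at chr11:87662722-87735539, Znrf3 on the minus strand at chr11:5276324-5444847, and Tcf7l2 on the plus strand at chr19:55741820-55933654. Tcf7l2 overlaps Ppnr and Rnf43 overlaps 1110028F11Rik on the same strand, while Rspo3, Lgr5, Axin2 and Tbx3 each overlap an annotated gene on the opposite strand, so the counts of these 6 genes could hold reads of a neighbour, and how the counting treated strand is not given in the sources used here.

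Tcf family factors recognise a short core motif, CTTTGAT, and RefSeq promoter windows of GRCm38.p6 (from 250 bases before to 50 bases after a gene's start) were searched for it on both strands. The motif stood in 3.73% of all 32851 windows. Of the 9 genes 5 had a window, 7 windows in all, and 0 of these held the motif. Among 14 other Wnt target genes 10 had a window and 3 held it. These were Sp5, a zinc-finger factor, Slc1a2, a glutamate transporter, and Lect2, a secreted hepatocyte protein, and Sp5 and Lect2 are named here only for this match. The matches are printed to show the motif in these windows. All 3 genes were lower in PH than in L (log2 fold change -3.10 for Sp5, -4.90 for Slc1a2 and -4.31 for Lect2), as were 12 of the 14 targets and 26.3% of all genes, so this does not set them apart. The value of Sp5 rests on 68 UMIs in L and 9 in PH, where 3 samples had none. In addition, the stretch of 120 bases before the start of Axin2 is printed as that of the gene among the 9 with the deepest fall. Capitals mark the motif, read on the gene's own strand, where ATCAAAG is the motif on the opposite strand.
Sp5, chr2:70474809-70474835, plus strand: gcaaggccccCTTTGATcaggaaaatc
Slc1a2, chr2:102706221-102706247, plus strand: gaagagggacATCAAAGgccccaaatg
Lect2, chr13:56548554-56548580, minus strand: gcttctccagATCAAAGgctttggccg
Axin2, chr11:108920229-108920348, plus strand: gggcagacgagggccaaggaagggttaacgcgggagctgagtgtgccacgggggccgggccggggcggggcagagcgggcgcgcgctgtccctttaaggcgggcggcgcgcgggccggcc
The first motif base lay 104 bases before the start of Sp5, 207 before that of Slc1a2 and 32 before that of Lect2. A match is a description of these letters and not a measured binding site, and the 120 bases of Axin2 held no match.

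In intact tissue the ligands and their targets stood highest in different cell types. Wnt2 in the 8 L samples had a lowest level of 54.1, a median of 117 and a highest level of 195 CPM in endothelial nuclei. Wnt9b stood at 10.7, 61.4 and 109 CPM there. The medians of both in the other 5 cell types lay between 0 and 0.716 CPM, so both were endothelial transcripts. The log2 difference between endothelial and hepatocyte nuclei was 7.04 for Wnt2 (adjusted p = 1.26e-37) and 7.42 for Wnt9b (adjusted p = 1.31e-33).

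Rspo3, the R-spondin that amplifies Wnt signalling, had a second source. Endothelial nuclei of L held it at 312, 444 and 966 CPM (lowest, median, highest), and stellate nuclei, the vitamin A storing pericytes of the sinusoid, at 485, 611 and 789 CPM. The ranges overlapped, and the difference between endothelial and stellate nuclei was -0.24 on the log2 scale (adjusted p = 0.522), whereas Wnt2 and Wnt9b were higher in endothelial than in stellate nuclei by 6.09 and 6.03. Hepatocyte nuclei had a median of 1.55 CPM Rspo3. In barcodes of 1 to 100 UMIs, taken as a measure of free RNA, Rspo3 stood at 42.4 CPM over all pools, Wnt2 at 7.62 CPM and Wnt9b at 3.96 CPM.

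**Figure D1:**
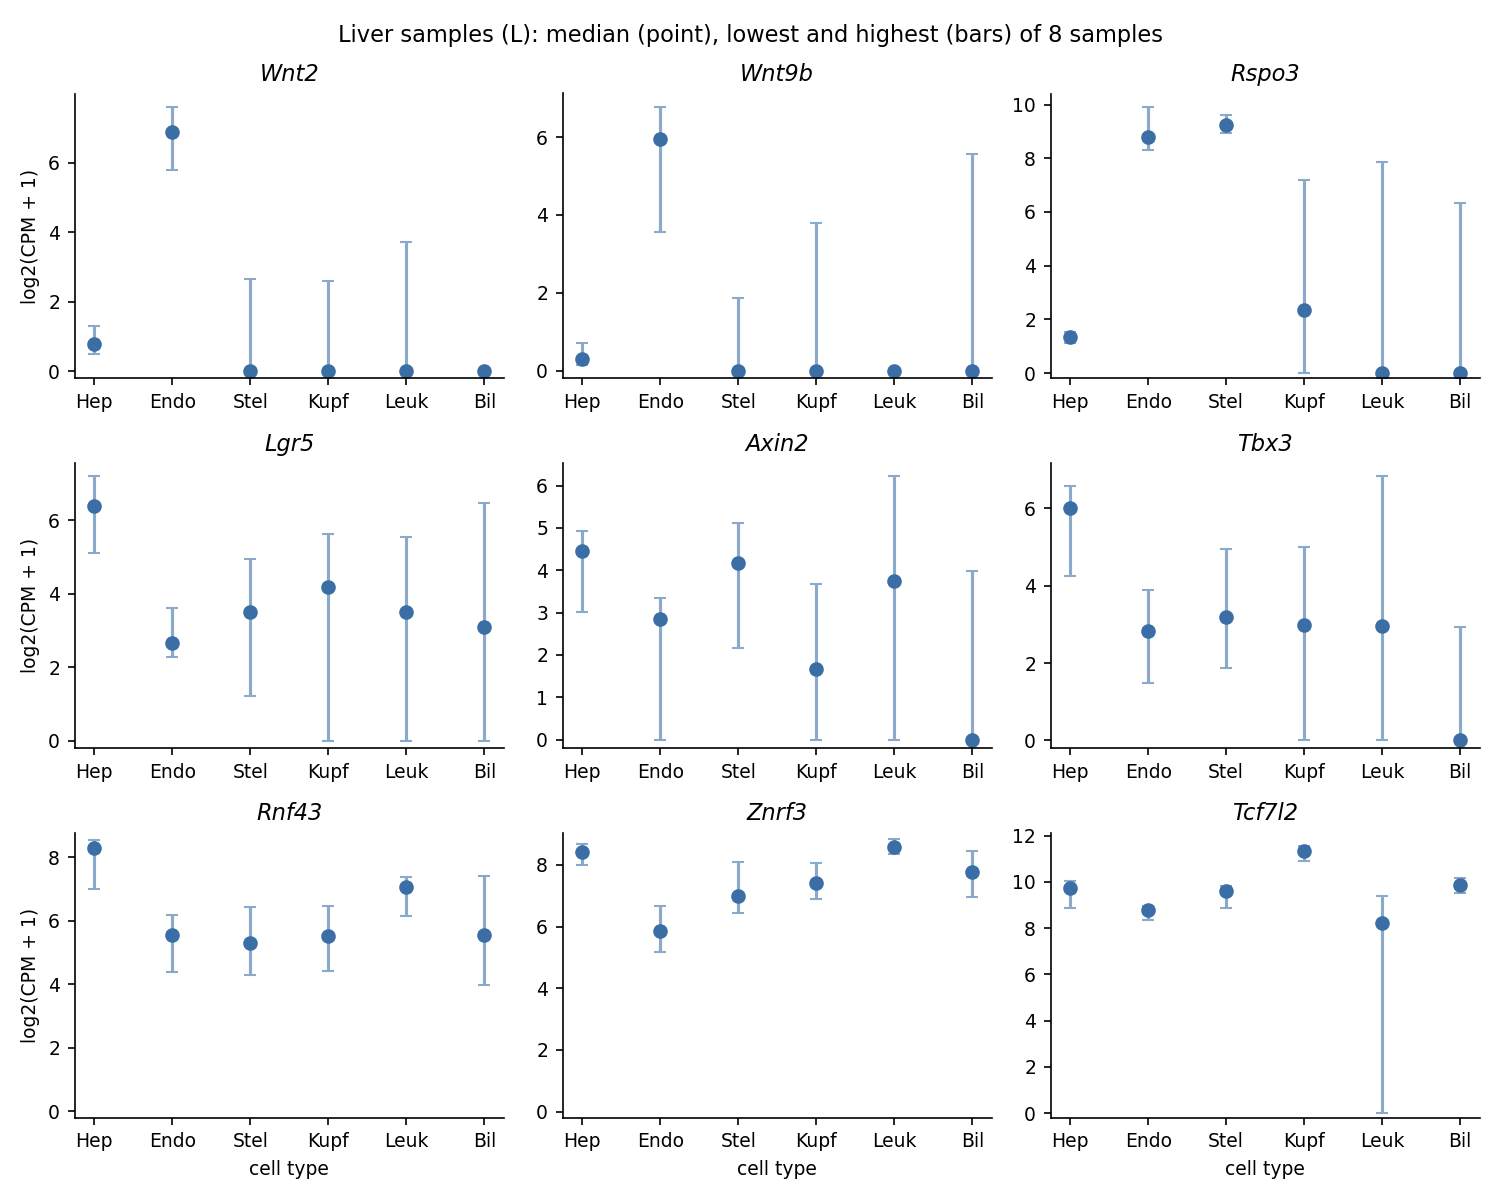
Level of each of the 9 genes, as log2(CPM + 1) on the vertical axis, in 6 cell types of the Liver samples on the horizontal axis, with the median of 8 samples as a point and the lowest and highest sample as bars. Wnt2 and Wnt9b are high in endothelial nuclei, Rspo3 in endothelial and stellate nuclei, Lgr5 and Tbx3 in hepatocyte nuclei, and Tcf7l2 is highest in Kupffer nuclei.

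The receptor and target genes ran the other way. Lgr5, an R-spondin receptor, stood at 33.4, 82.7 and 146 CPM in hepatocyte nuclei of L (lowest, median, highest), and the other cell types had medians of at most 17.2 CPM. Tbx3, a T-box repressor, had 18.1, 63.8 and 94.9 CPM in hepatocyte nuclei and medians of at most 8.14 CPM elsewhere. Axin2, a negative regulator that is itself a target, had a median of 21.1 CPM in hepatocyte and 16.9 CPM in stellate nuclei. Free RNA held Lgr5 at 48.5, Tbx3 at 25.9 and Axin2 at 11.9 CPM over all pools, and Axin2 at 3.52 to 26.5 CPM by pool. Between endothelial and hepatocyte nuclei 9 of 9 genes passed the test, where 47.0% of all genes did, with the 6 receptor and target genes lower in endothelial nuclei by log2 differences between -1.15 for Tcf7l2 and -3.86 for Lgr5.

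Znrf3 and Tcf7l2 reached or passed their hepatocyte level in other cell types. In barcodes of 1 to 100 UMIs, the measure of free RNA, Rnf43 stood at 150.3 CPM over all pools, Znrf3 at 259.8 and Tcf7l2 at 567 CPM, with pools between 77.6 and 278 CPM for Rnf43, 221 and 295 for Znrf3 and 386 and 814 for Tcf7l2. The ligase gene Rnf43 had a median of 315 CPM in hepatocyte nuclei and of 133 CPM in leukocyte nuclei. Endothelial, Kupffer, stellate and biliary nuclei had medians of 45.8, 45.3, 38.5 and 46.4 CPM Rnf43. The part of free RNA in these levels was not tested. Znrf3, the relative of Rnf43, had medians of 339 CPM in hepatocyte and 383 CPM in leukocyte nuclei, and the ranges of these overlapped. Tcf7l2, the Tcf factor that acts with beta-catenin in hepatocytes, was highest in Kupffer nuclei, the resident macrophages, at 1937, 2565 and 2981 CPM, with no overlap with hepatocyte nuclei at 472, 863 and 1047 CPM. This difference was 1.27 on the log2 scale (adjusted p = 1.26e-14), in a comparison where 8 of 9 genes and 41.0% of all genes passed. Biliary, hepatocyte and stellate nuclei followed with overlapping ranges, and endothelial nuclei had a median of 442 CPM, below the level of free RNA.

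Within the lobule Lgr5, Axin2, Tbx3, Rnf43 and Znrf3 were pericentral in L, and Tcf7l2 was not. Hepatocyte nuclei of each sample were ordered by the share of pericentral transcripts in their UMIs from 10 pericentral and 10 periportal genes that hold none of the 9, and the 2 outer parts of 3 equal parts were compared within mice, with 256 to 814 nuclei a side in L. The 10 pericentral genes are themselves listed below as Wnt targets, so the sides rank nuclei by target RNA and not by a measured position. Lgr5 had a median of 203 scaled CPM on the pericentral side and 2.74 on the periportal side of L. Tbx3 had 142 against 2.84 and Axin2 47.3 against 1.39 scaled CPM. For these 3 genes and for Rnf43 and Znrf3 the sides did not overlap, and all 8 mice were higher on the pericentral side. How many of all genes had sides without overlap was not counted. The log2 differences were 6.23 for Lgr5, 5.71 for Tbx3, 5.05 for Axin2, 2.16 for Rnf43 and 0.89 for Znrf3 (adjusted p at most 9.35e-12). Tcf7l2 went the other way by -0.27 (adjusted p = 0.000221), lower on the pericentral side in 7 of 8 mice with overlapping sides, a call lost without the replicate block (adjusted p = 0.461). All 6 genes passed in L, where 20.6% of all genes did.

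The ligands were on the central side of the endothelium. Endothelial nuclei were split by whether they held more UMIs of 7 central or of 8 portal endothelial markers, none of them among the 9 genes. On the central side of L Rspo3 had a median of 648 scaled CPM against 4.24 on the portal side, Wnt2 had 159 against 26.9, and Wnt9b had 92.7 against 0. Central and portal sides did not overlap for any of the 3 ligands, a measure not counted over all genes. The log2 differences were 5.69 for Rspo3, 2.81 for Wnt2 and 5.91 for Wnt9b, with adjusted p at most 4.74e-50, and at most 2.93e-11 where filterByExpr set the genes tested. With Rnf43, 4 of the 9 genes passed in L, where 4.28% of all genes did. The portal side of mouse 6 was the highest for Rspo3 at 193 scaled CPM, and without that mouse the Rspo3 difference was 8.29.

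After collagenase isolation Rspo3 and Wnt9b were lower in endothelial nuclei, and no change of Wnt2 was called. Of the 3 ligands 2 were lower in endothelial nuclei of CS than of L, and these were also the only ones of all 9 genes called, where 1.87% of all genes were called lower and 3.9% in either direction. Rspo3 stood at 317, 459.9 and 1028 scaled CPM in L and at 0, 117 and 384 in CS (lowest, median, highest). It was lower in CS in 7 of 8 mice, by -1.74 ± 0.35 (adjusted p = 0.000928). Wnt9b stood at 10.9, 63.3 and 116 scaled CPM in L and at 6.17, 21.99 and 46.0 in CS, a difference of -1.23 ± 0.36 (adjusted p = 0.0411) with overlapping groups. Wnt2 stood at 54.7, 119 and 202 scaled CPM in L and at 61.7, 122 and 179 in CS, a difference of -0.15 ± 0.20 (adjusted p = 0.779) that was lower in 3 of 8 mice. The CS sample with no Rspo3 UMI came from mouse 3 and allows up to 21.0 CPM, taking 3 counts as the limit of a count of 0, which covers counting error only. The Wnt9b call was lost with the mouse as a block (-1.06, adjusted p = 0.0518) and when mouse 3, 5, 6, 7 or 8 was left out (adjusted p from 0.0538 to 0.155), and in DESeq2 neither gene passed (adjusted p = 0.0614 for Rspo3 and 0.156 for Wnt9b).

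All 3 ligands were lower in endothelial nuclei of PH than of L. Wnt2 stood at 16.7, 28.0 and 48.0 scaled CPM in PH, below every L sample on this scale, and fell by 2.27 ± 0.24 on the log2 scale against L (adjusted p = 3.08e-10). In unscaled CPM the highest PH sample (55.7) passed the lowest L sample (54.1). Rspo3 stood at 0, 41.0 and 111.8 scaled CPM in PH, also below every L sample, and differed by -3.40 ± 0.38 (adjusted p = 1.00e-09). Its unscaled median in PH of 48.3 CPM was about that of free RNA, at 42.4 CPM over all pools and up to 83.2 CPM in a pool. Hepatocyte nuclei of PH had a median of 1.97 CPM Rspo3. The part of free RNA in the endothelial level was not tested. Wnt9b had 6 UMIs in the whole PH group and none in 5 of 8 samples, with a highest sample of 16.01 scaled CPM, and differed by -4.96 ± 0.56 (adjusted p = 1.00e-09). The 5 samples at 0 allow up to 3.08 to 31.5 CPM of Wnt9b, and the PH sample without Rspo3 up to 31.5 CPM. Each ligand was lower in PH than in L in 8 of 8 mice. The 75 PH nuclei of the uncultured cluster 3 held 35.9% of the Wnt2 UMIs of PH and 3 of the 6 Wnt9b UMIs. In the PH sample with the highest Wnt2, that of mouse 4, all 12 Wnt2 UMIs lay in cluster 3, which also made up 58.6% of the endothelial nuclei in mouse 7. Without the PH nuclei of an uncultured name the differences from L were -2.76 for Wnt2, -5.64 for Wnt9b and -3.34 for Rspo3, and 6 of the 9 genes passed. Of the 9 genes 6 were called lower, where 18.4% of all genes were, and the others were Axin2, Rnf43 and Tcf7l2, whose median levels in endothelial nuclei of L (6.18, 45.8 and 442 CPM) lay below those in barcodes of 1 to 100 UMIs (11.9, 150.3 and 567 CPM). Against CS the differences of PH were -2.13 for Wnt2, -3.72 for Wnt9b and -1.66 for Rspo3 (adjusted p = 0.00183), and 5 of 9 genes passed where 20% of all genes did. Without the authors' cluster 24, described next, Rspo3 was at 0.072 between PH and CS (adjusted p = 0.933). This cluster held 66.6% of the endothelial Rspo3 UMIs of CS and no nucleus of PH. Leaving it out was thus bound to shrink the difference between PH and CS and decides nothing about its source.

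**Figure D2:**
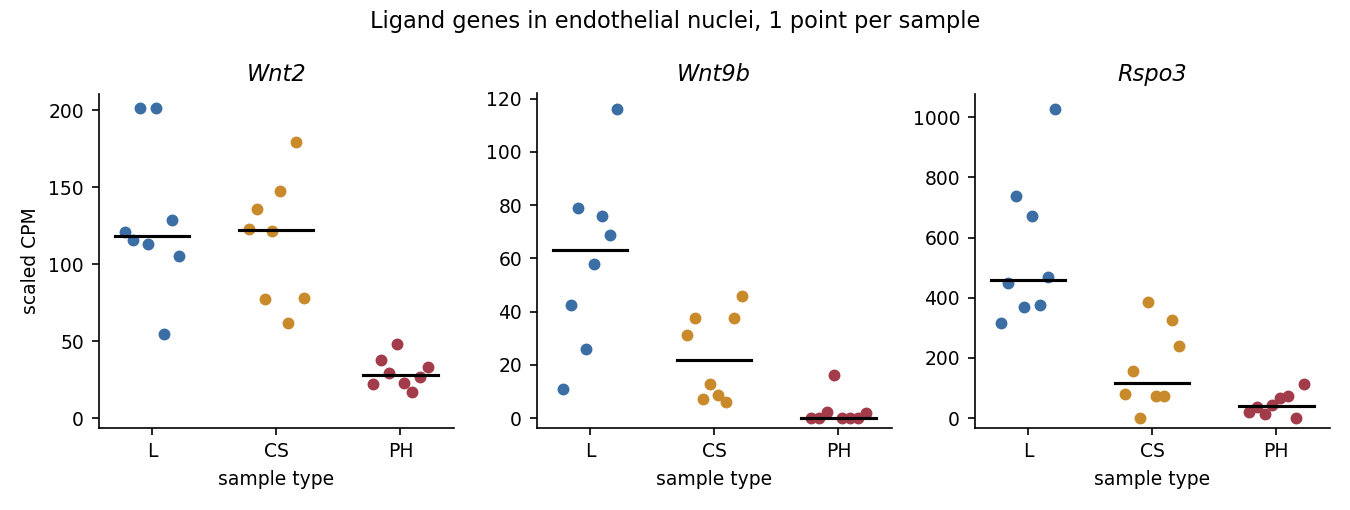
Scaled CPM of Wnt2, Wnt9b and Rspo3 in endothelial nuclei on the vertical axis for Liver (L), Cell Suspension (CS) and Primary Hepatocytes (PH) on the horizontal axis, with a point for each of 8 samples and a line at the median. The median of Wnt2 is 119 in L, 122 in CS and 28.0 in PH, while that of Rspo3 falls from a median of 459.9 in L to 117 in CS and 41.0 in PH.

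The fall of Rspo3 and Wnt9b moved with the number of nuclei in 1 endothelial cluster. The authors' clustering, which used all genes, these included, split endothelial nuclei mainly into clusters 3, 24 and 26 and the cultured cluster 12. Cluster 24 held 269 nuclei of L, 24 of CS and 0 of PH, which was 5.52, 9.42 and 22.4% of endothelial nuclei in L (lowest, median, highest) and 0, 1.37 and 5.79% in CS. The CS sample without Rspo3 had no nucleus of this cluster. In L, cluster 24 held 84.8% of the endothelial Rspo3 UMIs and 79.5% of those of Wnt9b, but 15.8% of those of Wnt2. In CS its 24 nuclei held 66.6, 56.5 and 3.75%.

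Pooled over samples, cluster 24 had 4399 CPM Rspo3 in L and 3171 in CS, and 436 and 457 CPM Wnt9b. Cluster 3, with 1982 nuclei of L and 1068 of CS, had 113 CPM Rspo3 in L and 53.1 in CS. Its Wnt2 was 154 and 122 CPM, near the 203 CPM of cluster 24 in L. Over all sample types Rnf43 stood at 162 CPM in cluster 24 and at 27.0 CPM in cluster 3, where free RNA held 150.3 CPM. Without cluster 24, 0 of the 9 genes passed between CS and L by edgeR, with Rspo3 at -0.94 (adjusted p = 0.150) and Wnt9b at -0.26 (adjusted p = 0.819), an alternative chosen after the data were seen. Between PH and L without that cluster Rspo3 was at -0.87 (adjusted p = 0.0437) and Wnt9b at -2.76, and 7 of the 9 genes passed. Since cluster 24 held most of the endothelial Rspo3 and Wnt9b UMIs of L, leaving it out was bound to shrink their differences from L. Whether fewer of its nuclei were recovered or their RNA changed cannot be told apart.

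**Figure D3:**
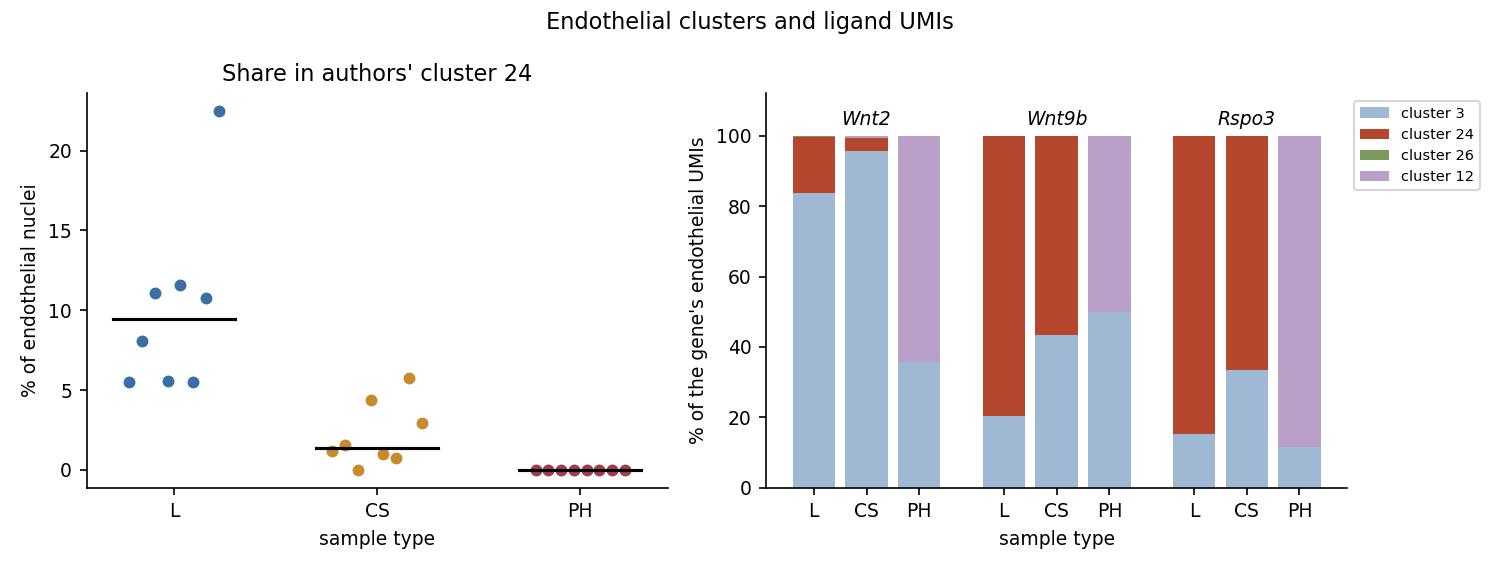
Left, the percentage of endothelial nuclei in the authors' cluster 24 on the vertical axis for each of 8 samples of L, CS and PH. Right, the percentage of each ligand's endothelial UMIs that each cluster held, as stacked bars per sample type, with cluster 24 holding 84.8% of Rspo3 and 15.8% of Wnt2 UMIs in L.

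In CS the ligands were again higher on the central side. Wnt2 had a median of 166 scaled CPM on the central and 14.98 on the portal side, a log2 difference of 2.83 (adjusted p = 1.90e-10). Rspo3 had 174 against 0, a difference of 2.99 (adjusted p = 7.24e-14), and Wnt9b differed by 3.79 (adjusted p = 0.00290), a call lost without replicate 1 (3.26, adjusted p = 0.0701). These 3 genes passed of the 9, where 1.62% of all genes did. Central-side nuclei made up 54.5 to 72.0% of endothelial nuclei in L, 60.9 to 71.1% in CS and 57.8 to 78.8% in PH, and these ranges overlap. The Rspo3 side difference of CS was smaller than that of L by -2.74 ± 0.53 (adjusted p = 0.000773, in a test that called 0.0544% of all genes). That rested on mouse 4, whose 18 portal-side nuclei of CS stood at 356 scaled CPM while the other 7 portal sides stood at 0. Without that mouse the difference was 3.33 (adjusted p = 0.984), and without cluster 24 it was 1.67 (adjusted p = 0.986).

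Rspo3 fell less in stellate than in endothelial nuclei as long as cluster 24 was counted. Stellate nuclei were few, at 880 in L, 148 in CS and 192 in PH. A sample held 9 to 33 of them in CS and 10 to 54 in PH, with as few as 10 Rspo3 UMIs in either, which limits these tests. In stellate nuclei Rspo3 stood at 561, 732 and 968 scaled CPM in L, at 299, 518 and 790 in CS and at 200.2, 395 and 855 in PH. The groups overlapped, and the differences were -0.60 between CS and L (adjusted p = 0.117) and -0.79 between PH and L (adjusted p = 0.00409). The PH difference depended on the scaling, with -0.36 (adjusted p = 0.195) under RLE size factors and -0.38 (adjusted p = 0.178) by library size alone, and without replicate 7 it was -0.53 (adjusted p = 0.0679). Of the 9 genes 0 passed between CS and L and 5 between PH and L, where 2.89% and 22.8% of all genes did, and the 5 were Rspo3, Axin2, Tbx3, Rnf43 and Tcf7l2. With filterByExpr, which also cut the calls over all genes, 1 of the 9 passed, and Rspo3 was at -0.25 (adjusted p = 0.275). Stellate medians in L of Tbx3 (8.14 CPM) and Rnf43 (38.5 CPM) lay below their levels in free RNA. The median of all genes lay at -0.39 between CS and L and at -0.19 between PH and L. The difference between the endothelial and the stellate change of Rspo3 was -1.18 ± 0.25 for CS (adjusted p = 0.00128, 0.497% of all genes called) and -2.56 ± 0.26 for PH (adjusted p = 2.01e-19, 5.83% of all genes called). Without cluster 24 these were -0.19 ± 0.28 (adjusted p = 0.912) and 0.04 ± 0.30 (adjusted p = 0.984). That cluster held 84.8% of the endothelial Rspo3 UMIs of L, so leaving it out was bound to shrink the endothelial fall and decides nothing about its source.

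In hepatocyte nuclei 2 of the 6 receptor and target genes, Tbx3 and Znrf3, were lower in CS than in L. Tbx3 stood at 22.6, 67.9 and 106 scaled CPM in L and at 11.8, 29.4 and 46.4 in CS, and was lower by -1.21 ± 0.31 (adjusted p = 0.00393) with overlapping groups. Znrf3 stood at 280.2, 369 and 456 in L and at 193, 271 and 394 in CS, with a difference of -0.44 ± 0.13 (adjusted p = 0.0175) that lost its call without replicate 7 (adjusted p = 0.0668) or 8 (adjusted p = 0.0792). These 2 of 9 genes passed, where 14.2% of all genes were called lower. Axin2 (-0.58 ± 0.22, adjusted p = 0.0551), Rnf43 (-0.47 ± 0.18, adjusted p = 0.0627), Lgr5 (-0.54 ± 0.28, adjusted p = 0.190) and Tcf7l2 (0.16 ± 0.17, adjusted p = 0.586) missed the threshold. With the mouse as a block, which pairs the samples of 1 animal, 4 of 9 genes passed, with Axin2 at -0.52 (adjusted p = 0.00377) and Rnf43 at -0.47 (adjusted p = 0.0358) added.

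After 24 hours of culture all 6 receptor and target genes were lower than in L. Lgr5 stood at 41.7, 84.8 and 163 scaled CPM in L and at 5.07, 7.97 and 11.7 in PH. Axin2 stood at 8.82, 23.1 and 32.9 in L and at 0.362, 0.639 and 0.809 in PH, which was 7 to 15 UMIs a sample. Rnf43 stood at 160.1, 341 and 414 in L and at 20.7, 27.6 and 36.7 in PH. On this scale not one PH sample reached the lowest L sample for any of the 6 genes, and each gene was lower in 8 of 8 mice. The share of all genes without such overlap was not counted, so this does not set the 6 genes apart. In CPM without the trimmed-mean factors Znrf3 overlapped, at 217 to 283 CPM in PH and 256 to 409 CPM in L, and its change by library size alone was -0.42 (adjusted p = 0.00218). The log2 fold changes were -5.07 ± 0.27 for Axin2, -3.77 ± 0.34 for Tbx3, -3.55 ± 0.31 for Lgr5, -3.50 ± 0.20 for Rnf43, -2.70 ± 0.18 for Tcf7l2 and -0.98 ± 0.14 for Znrf3 (adjusted p at most 2.48e-07). Of the 9 genes 6 were thus called lower, where 26.3% of all genes were, and the 3 ligands, at medians under 3 CPM in hepatocyte nuclei, did not pass. Lgr5 was uneven among the authors' cultured clusters, in CPM pooled over their nuclei. Cluster 14, with 1682 nuclei of PH, stood at 45.9 CPM with 518 Lgr5 UMIs, where PH hepatocyte nuclei held 1222 in all. Clusters 0, 1 and 17 stood at 4.59, 4.94 and 4.19 CPM, and cluster 8, which also held L and CS nuclei, at 15.9 CPM.

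The ligase genes Rnf43 and Znrf3, which act alike on Wnt receptors, fell by unequal amounts. Znrf3 in PH stood at 157, 187 and 219.7 scaled CPM against 280.2, 369 and 456 in L. Against CS the difference of PH was -0.54 ± 0.13 for Znrf3 (adjusted p = 0.00101) and -3.03 ± 0.20 for Rnf43, and the sign for Znrf3 turned to 0.16 (adjusted p = 0.236) by library size alone. Scaling by library size alone put the median of all genes at 0.66 between PH and L and at 0.71 between PH and CS, in place of 0.10 and 0.02 with trimmed-mean factors, so changes are read relative to these medians. Against CS all 6 genes passed, where 23.5% of all genes were called lower, and all but Znrf3 did so without overlap. The share of all genes without overlap was not counted here either.

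**Figure D4:**
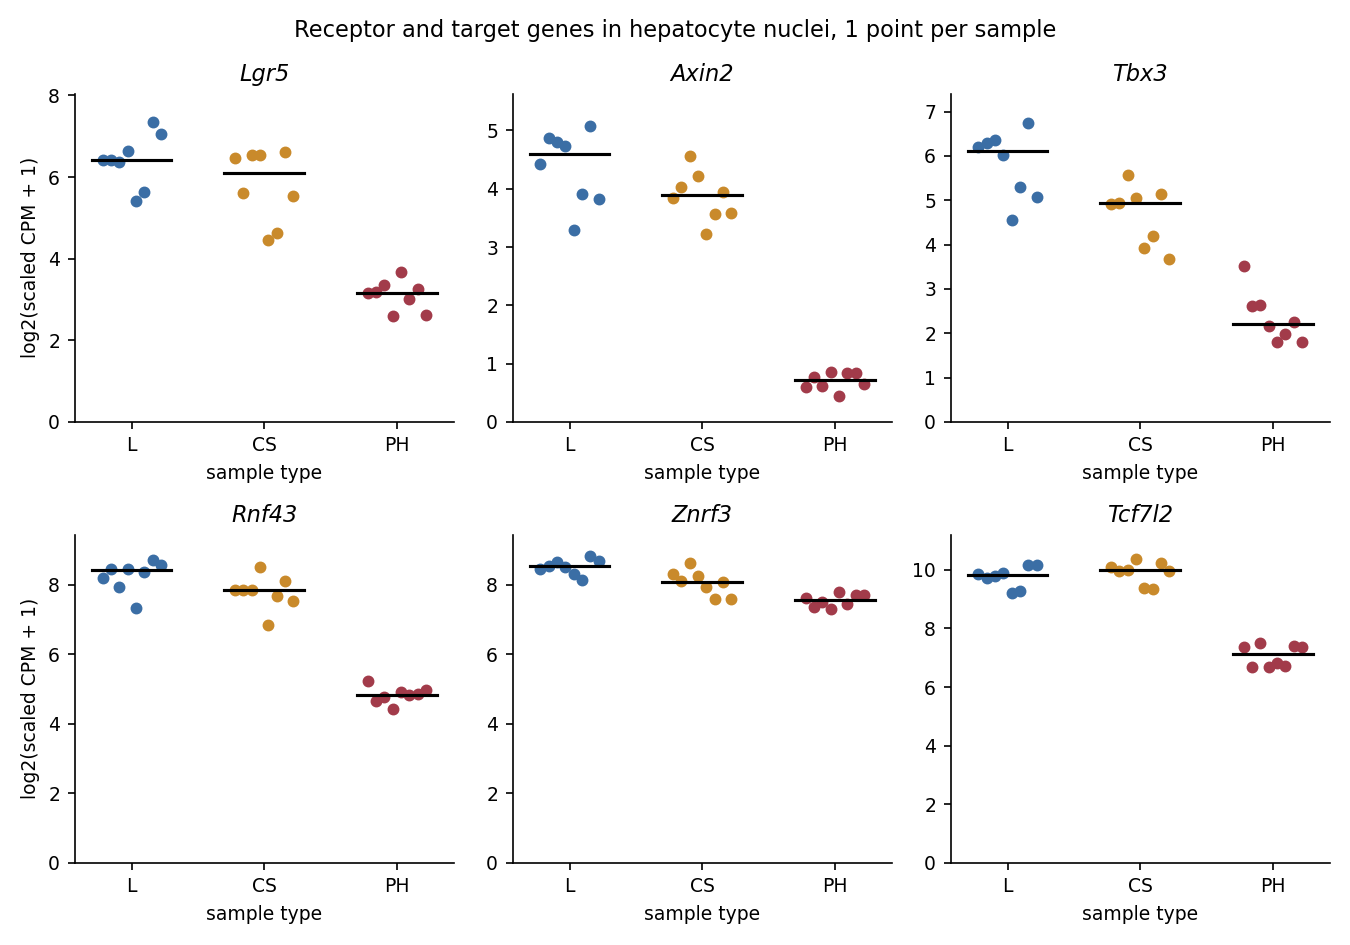
Level of the 6 receptor and target genes in hepatocyte nuclei, as log2(scaled CPM + 1) on the vertical axis, for L, CS and PH on the horizontal axis, with a point for each of 8 samples and a line at the median. All PH samples lie below all L samples for each gene on this scale (in unscaled CPM Znrf3 overlaps), and Znrf3 shows the smallest step.

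Tcf7l2 was lower in PH than in L in both hepatocyte and endothelial nuclei. The level of free RNA (567 CPM) lay above the PH hepatocyte samples (133 to 244 CPM) and above the endothelial medians of L and PH. In hepatocyte nuclei it stood at 589.7, 904 and 1159.9 scaled CPM in L, at 655, 1010.3 and 1339 in CS and at 102, 137 and 182 in PH. In endothelial nuclei it stood at 333, 469 and 524 in L and at 168, 228 and 301 in PH, a difference of -0.91 ± 0.14 (adjusted p = 1.85e-06). The groups of L and PH did not overlap in either cell type. The hepatocyte change exceeded the endothelial change by -1.63 ± 0.19 (adjusted p = 1.87e-12, where 25.1% of all genes were called), and no such difference was called between CS and L (0.25, adjusted p = 0.646, where 2.46% of all genes were).

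The pericentral bias of Lgr5, Axin2, Tbx3, Rnf43 and Znrf3 was smaller in PH, where 3 of the 6 genes still passed. In CS the side differences were 5.55 for Lgr5, 5.25 for Tbx3, 4.90 for Axin2, 1.85 for Rnf43, 0.50 for Znrf3 and -0.51 for Tcf7l2, and with Rspo3 7 of 9 genes passed where 16.1% of all genes did. With no replicate block, which also cut the calls over all genes, 4 passed, and Tcf7l2 was at -0.52 (adjusted p = 0.104). Between CS and L 0 of the 6 genes differed in this side difference by edgeR, where 1.13% of all genes did, and 3 had an unadjusted p under 0.05 (Rnf43, Znrf3 and Tcf7l2). In PH Lgr5 had medians of 14.1 on the pericentral and 3.54 on the periportal side, Tbx3 13.0 and 2.68, and Rnf43 49.3 and 30.9 scaled CPM, with overlapping sides. These 3 genes passed in PH at log2 differences of 1.901, 1.81 and 0.72, where 5.54% of all genes did. Axin2 (0.93, adjusted p = 0.582), Znrf3 (0.03, adjusted p = 0.911) and Tcf7l2 (0.07, adjusted p = 0.767) did not. The medians of the 3 genes on the pericentral side lay below their levels in free RNA (48.5, 25.9 and 150.3 CPM), whose part in these differences was not tested. Without the PH nuclei of an uncultured name, 21 on the pericentral and 14 on the periportal side, the 3 genes passed at 1.12 for Lgr5 (adjusted p = 0.00236), 1.60 for Tbx3 and 0.53 for Rnf43, an alternative chosen after the data were seen.

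All 6 genes differed between PH and L in the side difference, where 7.54% of all genes did. The differences were -4.27 ± 0.37 for Lgr5, -4.06 ± 0.73 for Axin2, -3.90 ± 0.34 for Tbx3, -1.42 ± 0.14 for Rnf43, -0.85 ± 0.11 for Znrf3 and 0.36 ± 0.11 for Tcf7l2 (adjusted p = 0.0220, the largest of the 6). The genes that set the sides were themselves scarce in PH. Nuclei with at least 5 UMIs of the list made up 93.5 to 99.6% of hepatocyte nuclei in L, 87.0 to 99.2% in CS and 19.2 to 48.3% in PH, and the part of this in the smaller side differences was not tested.

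**Figure D5:**
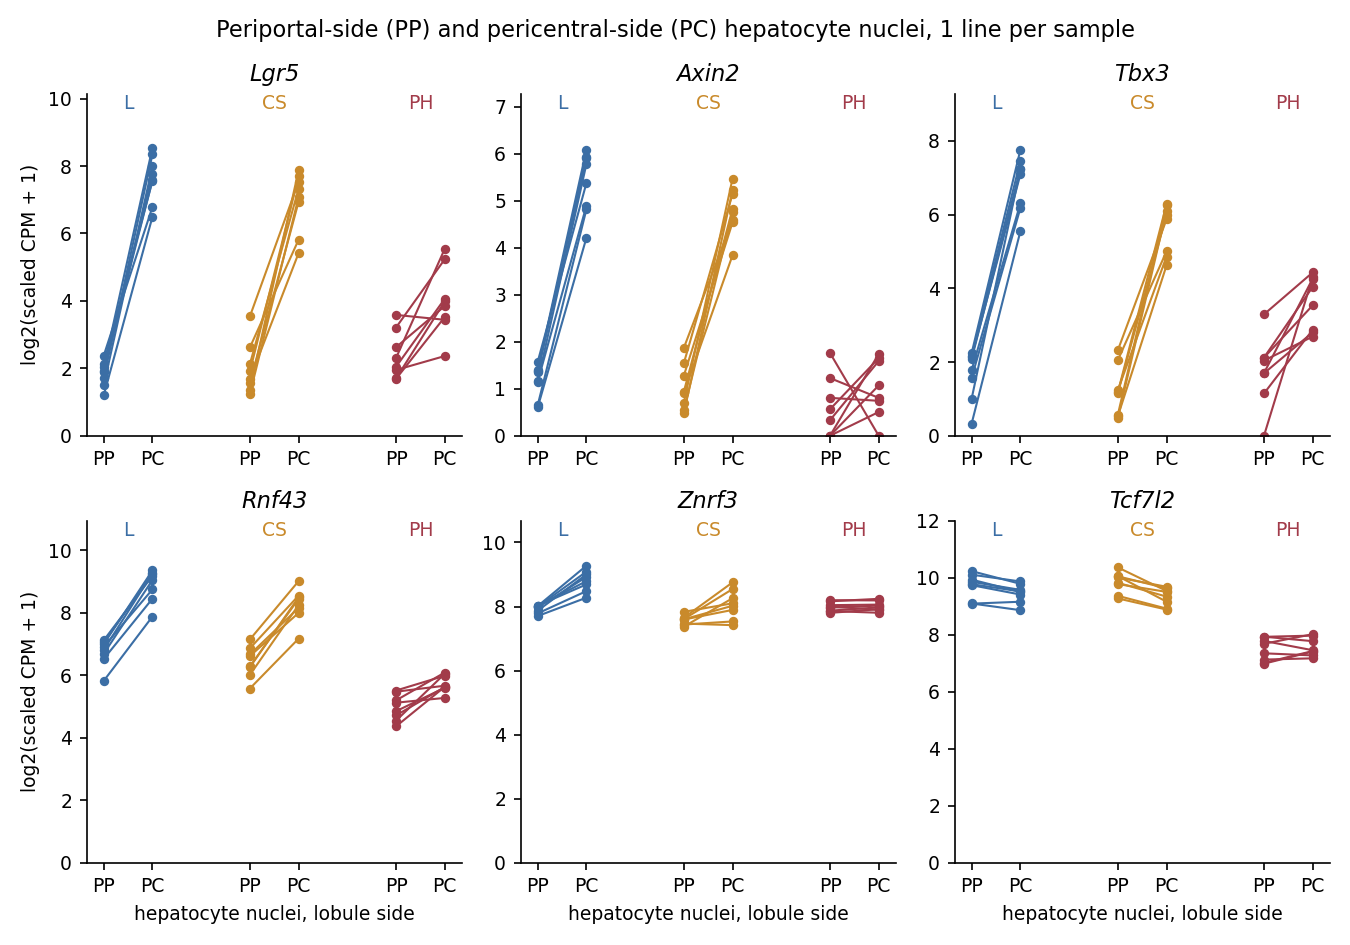
Level of the 6 receptor and target genes on the periportal (PP) and pericentral (PC) side, as log2(scaled CPM + 1) on the vertical axis, with a line joining the sides of each of 8 samples in L, CS and PH. Heights compare only within a sample type, since each was scaled on its own, and the steep lines of Lgr5, Axin2 and Tbx3 in L and CS are shallow in PH.

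Transcripts of Tbx3 and Axin2 in CS were more often spliced. Counts were deposited as spliced, unspliced and ambiguous UMIs, and an unspliced UMI comes from a transcript that still holds intron. The unspliced share of Tbx3 in hepatocyte nuclei was 39.0, 41.4 and 45.6% in L and 11.0, 15.2 and 19.6% in CS (lowest, median, highest of 8). That of Axin2 was 60.5, 67.1 and 77.3% in L and 23.6, 40.6 and 47.6% in CS. Neither gene's groups overlapped, and the mean shares differed by -26.4 and -29.5 percentage points (exact two-sided permutation test, p = 0.000155 for each, the smallest this unpaired test allows, among 11 such tests). These tests exchanged samples freely and did not use the pairing of samples by mouse. Over all 7992 genes with at least 20 UMIs in each sample the median difference was -5.64 points, 20.2% of genes were lower in CS without overlap, and the differences of Tbx3 and Axin2 lay at percentiles 0.475 and 0.163.

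The other receptor and target genes shifted less. Rnf43 was lower by -5.14 points without overlap (exact permutation p = 0.000155), Lgr5 by -3.43 (p = 0.0174) and Tcf7l2 by -2.39 (p = 0.0246) in exact permutation tests, and Znrf3 by -0.24 (exact permutation p = 0.338). The unspliced share of all hepatocyte UMIs was 72.5 to 77.5% in L, 62.4 to 71.7% in CS and 61.0 to 65.9% in PH. In PH the share of Tbx3 was 16.7, 31.4 and 40.6%, lower than in L by -11.1 points with overlapping groups (exact permutation p = 0.000622), and Axin2 had too few UMIs there. Lgr5 was lower by -7.92 points with overlap (exact permutation p = 0.000466), and Tcf7l2 by -5.54, Rnf43 by -3.01 and Znrf3 by -1.73 without overlap (exact permutation p = 0.000155 for each). Over all 11177 genes with enough UMIs in PH and L the median difference was -4.44 points and 25.9% were lower without overlap, and Tbx3 lay at percentile 16.8. Counted by state, Axin2 differed between CS and L by -1.27 in unspliced UMIs (adjusted p = 0.000831) and by 0.11 in spliced and ambiguous UMIs, and Tbx3 by -2.52 and -0.93 (adjusted p = 0.0233).

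Beyond the 9 genes, other target genes of the pathway fell in culture as a group. Of 14 listed in hepatocyte nuclei 12 were lower in PH than in L, 1 was higher and 1 did not pass, where 26.3% of all genes were lower and 27.4% higher, with a median log2 fold change of -3.03 against 0.10 over all genes. Cyp2e1, a cytochrome P450 of the central zone, went from a median of 1298 scaled CPM in L to 34.7 in PH, a change of -5.24. Glul, glutamine synthetase, went from 208 to 13.6 (-4.04), Slc1a2 from 455 to 15.2 (-4.90), and Cyp27a1, a bile acid synthesis enzyme, from 479.9 to 59.7 (-2.82). The gene that rose was Myc, named after its value was seen, a growth regulator that went from a median of 3.002 to 107 scaled CPM (3.76). Myc was already higher in CS, where 0 of 8 mice were lower than in L. The L median was 0.158 times that of CS, with overlapping groups. Between CS and L 3 of the 14 rose and 4 fell, where 8.15% and 14.2% of all genes did, with Glul 0.82 higher and Slc1a2 -0.80 lower. The 10 pericentral genes among them also set the lobule sides above.

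Receptors, transducers and inhibitors moved in both directions in hepatocyte nuclei between PH and L, where 27.4% of all genes rose and 26.3% fell. Of 17 other receptors 3 rose and 7 fell, among them Ror1, a Wnt co-receptor of the tyrosine kinase family, at -3.81 and Lgr4, the R-spondin receptor of wider expression, at -1.42. Lrp6 was at -0.54, which turned to 0.036 by library size alone, and its paralog Lrp5 at 0.51, a call lost without replicate 1, 2 or 5 (adjusted p from 0.0576 to 0.0888). Of 10 cytoplasmic transducers 1 rose and 3 fell, with Btrc, which marks beta-catenin for degradation, at -1.19 and the kinase Gsk3b at -0.37, which was -0.24 (adjusted p = 0.0883) without replicate 4 and 0.19 by library size alone. Of 7 nuclear factors 3 fell (Tcf7l1 -0.99, Bcl9 -0.78, Bcl9l -0.71) and 0 rose. Of 13 inhibitors tested 2 rose and 2 fell, and Notum, a secreted enzyme that inactivates Wnt proteins, was at -5.25, from a median of 11.4 to 0.287 scaled CPM.

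Among other ligands in hepatocyte nuclei of L, Wnt5b stood highest of the 4 named, at 28.9, 37.5 and 64.9 scaled CPM (lowest, median, highest). Of 20 other ligand genes 5 rose and 2 fell between PH and L, where 27.4% of all genes rose and 26.3% fell, so the share that rose was near that of all genes. Wnt4 went from a median of 1.35 to 9.19 scaled CPM (2.74) and Wnt9a from 2.98 to 10.8 (1.83), while Wnt2b went from 10.7 to 13.4 (0.31) and Wnt5b from 37.5 to 17.7 (-1.16). The Wnt2b call was lost without replicate 2, 5 or 7 (adjusted p from 0.0645 to 0.0930). The 2 secretion genes Porcn and Wls did not pass.

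In endothelial nuclei several genes of Wnt release and reception were lower in PH than in L, where 18.4% of all genes were. Wls, the carrier that takes Wnt proteins to the cell surface, stood at 141, 174 and 196 scaled CPM in L and at 40.0, 63.4 and 78.4 in PH, without overlap, a change of -1.41. Tcf7l1, a Tcf factor, changed by -1.92 and the Wnt antagonist Nkd1, one of 13 other target genes tested of which 4 fell and 1 rose, by -2.52. Of 13 receptors tested 4 fell and 0 rose, with Lrp5 at -0.78 and Ryk at -0.68, and of 7 inhibitors tested 2 fell, Dkk3 at -2.52 and Kremen1 at -0.93. Among 9 other ligands tested Wnt9a alone rose, by 1.62, where 15.4% of all genes rose, and without replicate 3 it was at 0.91 (adjusted p = 0.199).

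The genes whose levels ran most like the most abundant ligand and target are given as a description, over 24 samples that share libraries and depth. For Rspo3 in endothelial nuclei they were Entpd1 (r = 0.955), Cr2 (0.923), Fads1 (0.914), Wdr17 (0.898) and Rnf215 (0.892) of 9209 genes. For Tcf7l2 in hepatocyte nuclei they were Ppnr (0.993), which overlaps it on the same strand, Prkag2 (0.990), Pde8a (0.990), Chn2 (0.988) and Zfhx2 (0.987) of 8616 genes.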

How the data were processed

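Nuclei of 24 samples were tagged, pooled and sequenced with the 10x 3′ kit version 3.1. The authors made UMI counts per gene and nucleus from the reads with Salmon Alevin 1.9.0 and alevin-fry 0.7.0 on GRCm38, after bcl2fastq 2.19.0, and deposited spliced, unspliced and ambiguous counts per pool with a table of 53467 nuclei, from which untagged nuclei and doublets had been removed. All counts were whole numbers.

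Here the 3 states were added and summed per sample and cell type. Genes with at least 10 counts over the samples of a fit were tested in edgeR 4.0.16 (R 4.3.3; TMM factors, glmQLFit and glmQLFTest), with a threshold of 0.05 on Benjamini-Hochberg adjusted p-values. Sample types were compared without a block, as in the study's methods, and cell types and sides within mice with the mouse as block. Alternatives included DESeq2 1.42.0. Differences between changes came from interaction fits with the sample as block, and these, the stellate, Kupffer and CS vessel side fits and the unspliced shares were added after seeing the data. The unspliced shares were tested in scipy 1.17.1. Only for these shares was overlap between groups counted over all genes. The fits were tested on simulated data.

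The 9 genes and all lists were chosen with earlier results of these data known. The rule took all 9 genes in each comparison, some given here only within counts, and from each pathway list the up to 4 genes of highest mean CPM. One sample tag of the authors' table, CD2, was read as CS of mouse 2, since that table gives its group as CS, and the values and pairing of that sample rest on this reading. The samples of a mouse come from the same animal, and hepatocyte deviations of L and CS from their group means correlated within mice at 0.343 to 0.850 (median 0.674).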

Additional observations from a re-analysis of the deposited data

Results flagged for a closer look

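A sample far from the other 7 of its group was looked for in 27 groups, where chance alone marks about 1 in 20. There were 2. Wnt9b in endothelial nuclei of PH stood at 16.01 scaled CPM in mouse 4, where the next sample stood at 2.25, which rests on 4 UMIs, 2 of them in cluster 12 and 2 in the uncultured cluster 3, while samples at 0 allow up to 31.5 CPM. Tbx3 in hepatocyte nuclei of PH stood at 10.4 scaled CPM in mouse 1, where the next sample stood at 5.24.

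The side difference of all 6 receptor and target genes differed between PH and L, by -4.27 for Lgr5, -4.06 for Axin2, -3.90 for Tbx3, -1.42 for Rnf43, -0.85 for Znrf3 and 0.36 for Tcf7l2 on the log2 scale.

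Among the changes that differed between cell types was -1.63 for Tcf7l2 (hepatocyte minus endothelial, PH against L). Rspo3 differed by -1.18 and -2.56 (endothelial minus stellate, CS and PH against L). It also differed by -2.74 between vessel sides (central minus portal side, CS against L). The last rested on 1 portal side of 18 nuclei. These 3 differences of Rspo3 were called only with the authors' cluster 24 in the sums. That cluster held 84.8% of the endothelial Rspo3 UMIs of L. The hepatocyte minus endothelial difference between PH and L was also called for Wnt2 (2.37), Wnt9b (4.06) and Rspo3 (3.35). It was called too for Lgr5 (-3.54), Axin2 (-2.80), Tbx3 (-3.06), Rnf43 (-1.78) and Znrf3 (-1.24), where 25.1% of all genes were. For Rspo3 it was also called between CS and L (2.25). Tcf7l2 differed by 1.05 between endothelial and stellate nuclei (PH against L).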

How the results depend on the processing

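Counts of the 9 genes called were recomputed for 16 comparisons under 256 alternatives in all, and 234 stayed within 1.5 times the reported count. Between CS and L the hepatocyte count of 2 was 1 with RLE size factors, 4 by library size alone and 4 with the replicate block, and 1 to 4 with 1 mouse left out. The endothelial count of 2 was 1 with RLE factors, filterByExpr, the replicate block, the pool as covariate, unspliced UMIs alone or samples thinned to equal depth, 0 in DESeq2 or without cluster 24, and 1 to 2 with 1 mouse left out. The endothelial count of 5 between PH and CS was 3 with spliced and ambiguous UMIs, the stellate count of 5 was 1 with filterByExpr, and the count of 7 for the lobule sides of CS was 4 with no replicate block. The pairing moved no other count of the 9 genes by over 1.5 times. Library size alone, the omission of cluster 8 or 24, and all alternatives of the stellate, Kupffer, CS vessel side and interaction fits were chosen after seeing the data.

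Over all genes, 28 of 256 counts moved by over 1.5 times. With no replicate block the lobule sides fell from 4580 to 1667 in L, 3173 to 1180 in CS and 1160 to 124 in PH, and the vessel sides from 669 to 332 in L and 186 to 62 in CS, the last being 106 with RLE factors and 94 with filterByExpr. In hepatocyte nuclei between CS and L, 5983 became 3366 in the thinned samples. In endothelial nuclei between PH and L, 6181 became 3818 with filterByExpr, 3268 with the pool, 4075 with spliced and ambiguous UMIs and 2468 thinned. Between CS and L, 712 became 334, 429 and 261 under the last 3 of these, and 432 and 469 without replicates 1 and 3, and between PH and CS 3656 became 2197 with spliced and ambiguous UMIs and 1955 thinned. Between endothelial and stellate nuclei of L, 5222 became 3137 with spliced and ambiguous UMIs. In stellate nuclei 415 between CS and L became 231 by library size alone, 110 with filterByExpr and 193 to 275 without replicate 1, 2, 3, 4 or 7, and 3278 between PH and L became 1059 with filterByExpr.

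For single genes called, 1507 of 1601 alternatives kept the direction and the call, 84 lost the call and 10 turned the sign. Of genes not called, 9 of 173 alternatives were called and 4 turned the sign. By library size alone the sign turned for Lrp6 (0.036), Gsk3b (0.19) and, between PH and CS, Znrf3 (0.16). With spliced and ambiguous UMIs it turned for Gsk3b (0.023), Znrf3 between PH and CS (0.18), Axin2 (0.11) and Rnf43 (0.00812) between CS and L, and in endothelial nuclei for Wnt2 between CS and L (0.40) and Bcl9 between PH and L (0.25). With 1 mouse left out, Wnt2 between CS and L ranged from -0.270 to 0.031, the latter without replicate 3. Without cluster 24, Rspo3 was at 0.072 between PH and CS, its endothelial minus stellate difference at 0.043 for PH, and its difference between vessel sides at 1.67, which ranged from -5.42 to 3.33 with 1 mouse left out, the latter without replicate 4. The cause was not tested for these values. Axin2 in PH rested on 7 to 15 UMIs a sample and Wnt9b on 6 in all, which limits both, and PH endothelial sums came from 29 to 510 nuclei.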
